A study of Mus musculus with 37 samples.

Results

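The Hox genes and the genes of their Meis and Pbx cofactors were followed in cultured mouse fibroblasts from 3 organs, grown with or without macrophages. Members were taken by symbol from the fibroblast count table: every Hoxa, Hoxb, Hoxc, Hoxd, Meis and Pbx gene with a number, whatever their values. The rule found 38 of the 14028 genes, namely 10 Hoxa, 9 Hoxb, 8 Hoxc and 5 Hoxd genes, Meis1, Meis3 and 4 Pbx genes. Meis2 was not analysed here.

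RNA 3′ ends were sequenced in bulk from BALB/c mouse cells, with all mice aged 8 weeks. The groups were 3 co-cultures and 2 mono-cultures of fibroblasts from mesometrial fat, the fat that lies along the uterus, 3 and 3 from lung, and 5 and 5 from mammary fat pad. All fibroblasts were expanded on collagen I, depleted of cells carrying EpCAM or CD45 and then grown for 7 days in collagen I-coated wells, with or without macrophages. The macrophages had been raised from bone marrow of BALB/c females in medium with L929-conditioned medium. Fibroblast libraries were made from live cells negative for F4/80 and CD11b, surface proteins of macrophages, per the labels. For fat and mammary fibroblasts the tissue of 2 females was pooled per biological replicate, and the sources used here do not say which of the mammary fat pads were used. The labels call the libraries of a group repetitions, so p-values measure the spread between these libraries, which may be partly technical.

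Hox genes encode homeodomain transcription factors that give cells of the embryo their position along the body axis. Genes of low paralog number lie at one end of each cluster and are used from the head end backwards, whereas genes of high paralog number are used towards the tail. Meis and Pbx proteins are homeodomain proteins of the TALE class that bind DNA together with Hox proteins and sharpen their choice of sites. In human skin fibroblasts, Hox genes are known to be used differently by body site and to keep that use in culture.

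In the GENCODE vM21 annotation of GRCm38 the Hoxa members lay on chromosome 6 from 52155590 to 52245810, on the minus strand. The other clusters lay on the plus strand, with Hoxb members on chromosome 11 from 96194316 to 96354012, Hoxc members on chromosome 15 from 102921103 to 103036852 and Hoxd members on chromosome 2 from 74691924 to 74748442. RefSeq promoter windows of GRCm38.p6, reaching from 250 bases before to 50 bases after a start, were matched by symbol for 20 of the 38 members, in 21 windows. Of these, 12 windows began their transcript within 100 bases of the GENCODE start. Among these 12, the number of CG pairs was 6 to 29, and 11 had more than 7, the median of all 32851 windows, which 48.6% of all windows exceed. The windows of Hoxa5, Hoxa11 and Hoxd10 are shown because each of these genes set at least 1 organ apart from both others in both cultures. Every CG is in capitals, 29 in Hoxa5 (chr6:52204538-52204837, minus strand), 15 in Hoxa11 (chr6:52245761-52246060, minus strand) and 22 in Hoxd10 (chr2:74691641-74691940, plus strand).
Hoxa5: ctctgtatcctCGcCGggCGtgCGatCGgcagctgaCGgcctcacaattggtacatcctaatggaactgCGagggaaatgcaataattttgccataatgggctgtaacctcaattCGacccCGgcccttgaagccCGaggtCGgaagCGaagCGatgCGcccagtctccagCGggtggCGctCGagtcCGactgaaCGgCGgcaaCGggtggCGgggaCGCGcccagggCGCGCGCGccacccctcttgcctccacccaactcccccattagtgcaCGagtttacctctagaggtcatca
Hoxa11: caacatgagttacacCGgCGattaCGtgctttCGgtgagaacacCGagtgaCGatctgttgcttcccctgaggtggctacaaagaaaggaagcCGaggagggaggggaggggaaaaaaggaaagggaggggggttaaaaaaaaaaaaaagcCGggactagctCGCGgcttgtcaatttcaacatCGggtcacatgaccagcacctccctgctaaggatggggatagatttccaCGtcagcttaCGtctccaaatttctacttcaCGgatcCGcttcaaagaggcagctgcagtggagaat
Hoxd10: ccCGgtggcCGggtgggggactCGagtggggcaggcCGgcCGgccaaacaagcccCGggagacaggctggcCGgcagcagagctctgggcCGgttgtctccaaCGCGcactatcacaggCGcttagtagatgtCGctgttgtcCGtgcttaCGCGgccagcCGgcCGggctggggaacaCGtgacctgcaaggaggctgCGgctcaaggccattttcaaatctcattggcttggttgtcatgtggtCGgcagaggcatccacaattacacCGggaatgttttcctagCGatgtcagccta

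TGATNNAT, a sequence bound by Pbx and Hox proteins as a pair, and TGACAG, a sequence bound by Meis proteins, were searched on both strands of the same windows. TGATNNAT was found in 8.85% of all windows and TGACAG in 19.2%. Among the members with a window, TGATNNAT was found in Hoxa2 and Hoxb8, and TGACAG in Hoxa2 and Hoxa3, and no matches overlapped. The windows of Hoxa2 (chr6:52164782-52165081, minus strand) and Hoxb8 (chr11:96281655-96281954, plus strand) are shown with the matches in capitals, since both genes differed between organs. A match describes the letters only.
Hoxa2: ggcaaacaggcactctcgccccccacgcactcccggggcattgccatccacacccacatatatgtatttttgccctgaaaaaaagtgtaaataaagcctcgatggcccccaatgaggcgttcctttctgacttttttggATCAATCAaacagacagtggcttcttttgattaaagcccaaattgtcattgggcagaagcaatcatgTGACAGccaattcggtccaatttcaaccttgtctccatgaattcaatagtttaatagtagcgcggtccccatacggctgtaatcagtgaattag
Hoxb8: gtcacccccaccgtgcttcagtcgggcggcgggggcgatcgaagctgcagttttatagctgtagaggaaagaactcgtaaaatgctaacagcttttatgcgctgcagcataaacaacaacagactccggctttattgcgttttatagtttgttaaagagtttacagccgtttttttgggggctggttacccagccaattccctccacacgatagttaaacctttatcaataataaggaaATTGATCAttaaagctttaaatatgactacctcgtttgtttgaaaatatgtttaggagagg

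The 21 fibroblast libraries held 3304605 to 7487355 counts. Levels are in CPM, a gene's count scaled to its library's total times edgeR's TMM scaling factor, which ran from 0.873 to 1.09. They are compared between libraries for 1 gene and not between genes. Of the 38 members, 36 passed the filter on low counts and were tested among 12421 genes, while Hoxa6 and Hoxb13 did not. A gene is said to have passed the test when its p from edgeR's quasi-likelihood test, adjusted over all tested genes by the Benjamini-Hochberg method, was under 0.05, and log2 fold changes carry their standard errors. In bulk libraries, fewer cells of a type that uses a gene and less of its RNA per cell cannot be told apart. Lung mono-culture replicate 3 is titled as lung, but its source and tissue labels name mammary fat pad. It was kept with lung by its title, and its posterior Hox counts were like those of the other lung mono-cultures, with 0 counts of Hoxa10 and Hoxa11. The column of 1 fat mono-culture carries a number that matches no title, so it was used as a library of that group without a replicate number. Mammary replicates 1 and 3 stood apart from 2, 4 and 5 on the component that held 49.2% of the variance. Their column names also had another form among the deposited normalised counts, though not among the raw counts. Mammary co-culture replicates 2 and 4 stood apart from the other mammary libraries on the component that held 13.9% of the variance. Results that rest on these libraries are given without them where that changed a call.

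Marker levels differed between the organs. All 8 fibroblast markers were detected in every group, with list means of 8.79 to 9.43 on the log2(CPM + 0.5) scale. Single markers differed more. In co-cultures Lum averaged 64.7 CPM in fat, 16.2 CPM in lung and 1.43 CPM in mammary fibroblasts, and Dcn 2717, 2799.5 and 1128 CPM. Col1a1 went the other way, at 764, 696 and 3448.5 CPM, as did Thy1, at 390, 415 and 1401 CPM. The 6 mesothelial markers are genes of the cells that line body cavities, such as Msln and Upk3b. They summed to 1078 to 2896 CPM in fat, 1767 to 3322 CPM in lung and 30.7 to 138 CPM in mammary libraries. Krt19 was the largest part in mammary fibroblasts by group mean, and the other markers of this list were all lower there. It averaged 73.1 CPM in mammary co-cultures against 24.4 CPM in fat and 32.2 CPM in lung co-cultures. In mono-cultures the mammary mean of Krt19 was close to that in lung and above that in fat. The 3 keratins of the epithelial list, Krt8, Krt14 and Krt18, summed to between 78.3 and 201 CPM in fat, between 146 and 302 CPM in lung and between 0 and 2.91 CPM in mammary libraries. The 6 markers of smooth muscle and pericytes summed to between 1304 and 2632 CPM in fat, between 261 and 435 CPM in lung and between 82.1 and 379 CPM in mammary libraries. Des was the largest part in fat, averaging 1483 and 1316 CPM in co- and mono-cultures. Cspg4 went the other way, at 5.65 and 7.79 CPM in fat against 30.8 and 18.5 CPM in mammary fibroblasts. Cnn1 averaged 122 CPM in fat and 153 CPM in mammary mono-cultures, but 325 and 129 CPM in co-cultures. The 6 endothelial markers summed to between 39.1 and 109 CPM in fat co-cultures and 135.5 and 228 CPM in fat mono-cultures, between 32.5 and 53.4 CPM in lung and between 10.9 and 36.9 CPM in mammary libraries. The 2 adipocyte markers in the table, of 6 listed, summed to between 101 and 158 CPM in fat, between 28.4 and 72.4 CPM in lung and between 12.0 and 75.4 CPM in mammary libraries. These sums were nearly all Fabp4, with Adipoq at group means of 0 to 0.661 CPM. The part of these cells in the Hox differences between organs and cultures was not tested.

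The make-up of the Hox counts differed by organ. In lung fibroblasts, genes of paralog groups 9 to 13 gave 3.13 ± 1.37% of all Hox counts in co-culture and 3.22 ± 0.806% in mono-culture (SD, n = 3 each). They gave 46.4 ± 2.04% (n = 3) and 44.7 ± 5.48% (n = 2) in fat, and 41.8 ± 7.84% and 42.0 ± 3.61% (n = 5 each) in mammary fibroblasts. Each library of fat and of mammary fibroblasts, with shares from 31.5 to 51.6%, was above each library of lung, with 2.30 to 4.72%. Paralog groups 1 to 4 gave 46.4 ± 5.55% and 49.3 ± 4.85% in lung co- and mono-cultures, 18.2 ± 0.354% and 17.4 ± 1.45% in fat, and 17.8 ± 3.58% and 16.2 ± 1.38% in mammary fibroblasts.

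The shares of the 4 clusters in all Hox counts also varied by organ. Hoxd genes gave 11.8 ± 1.47% of the Hox counts in fat co-cultures and 12.98 ± 2.07% in fat mono-cultures, against 3.38 ± 2.34% and 4.00 ± 1.26% in mammary and 1.81 ± 0.900% and 1.94 ± 1.36% in lung fibroblasts. Hoxb genes gave 18.4 ± 3.23% and 16.8 ± 1.60% in fat, 49.1 ± 0.474% and 47.0 ± 4.62% in lung, and 45.1 ± 6.00% and 43.0 ± 4.57% in mammary fibroblasts. Hoxa genes gave less in mammary fibroblasts, with 12.6 ± 3.05% and 12.95 ± 0.485%, against 33.6 ± 2.75% and 35.5 ± 2.00% in fat and 39.4 ± 2.26% and 37.2 ± 6.11% in lung. Hoxc genes gave 36.2 ± 1.05% and 34.7 ± 1.67% in fat and 39.0 ± 2.84% and 40.03 ± 3.66% in mammary fibroblasts, but 9.72 ± 1.71% and 13.9 ± 0.851% in lung. All Hox genes together summed to 778 ± 17.1 and 808 ± 5.66 CPM in fat, 532 ± 23.0 and 476 ± 22.5 CPM in lung, and 949 ± 94.3 and 937 ± 22.5 CPM in mammary co- and mono-cultures.

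**Figure D1:**
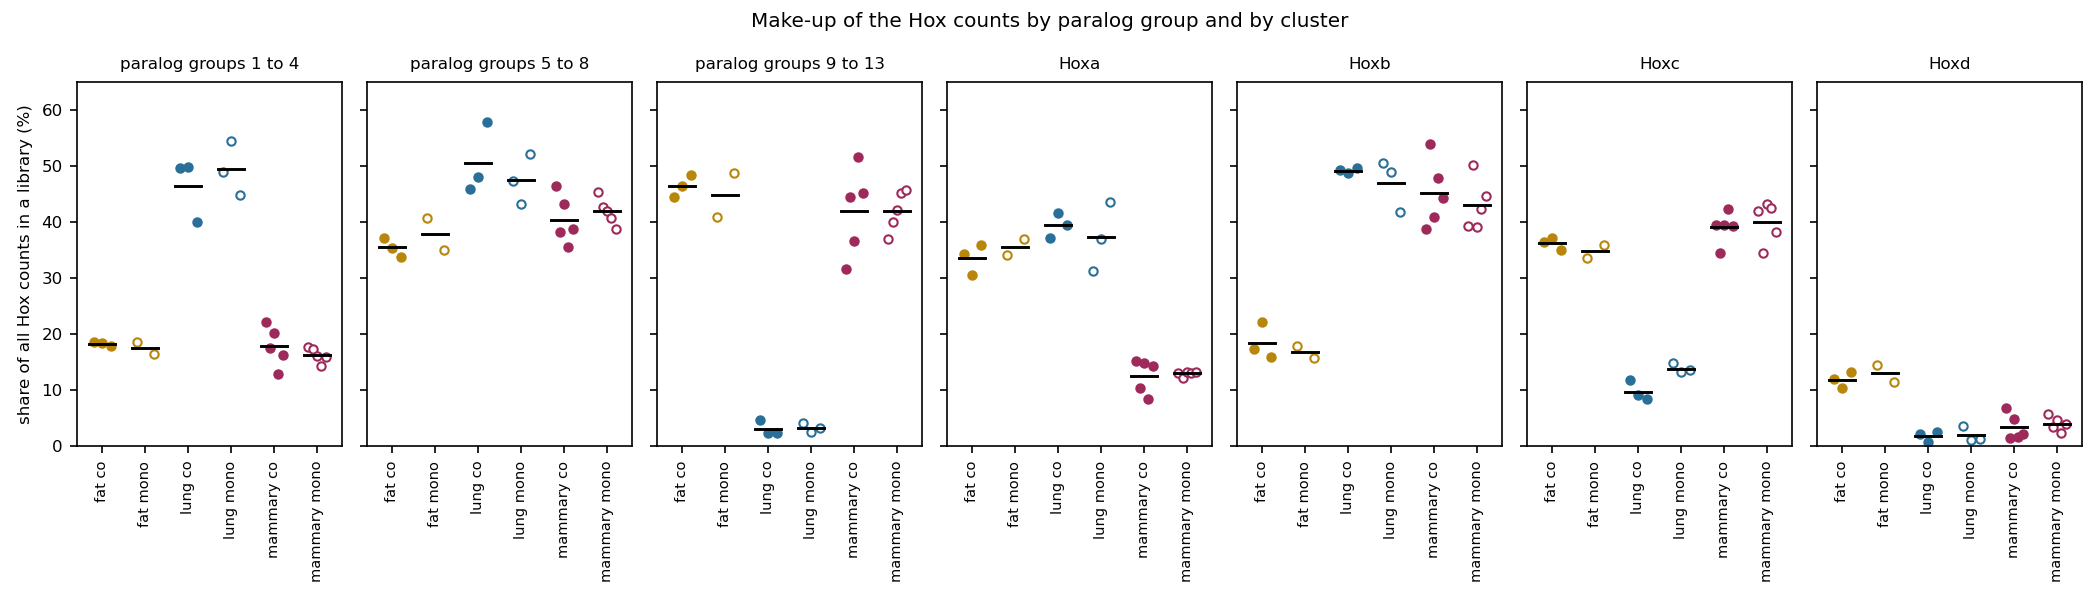
Share of all Hox counts, in percent, taken by 3 ranges of paralog groups and by the 4 clusters, with 1 point per library, filled for co-culture and open for mono-culture, and a line at each group's mean. Paralog groups 9 to 13 gave 46.4% and 44.7% in fat, 3.13% and 3.22% in lung and 41.8% and 42.0% in mammary fibroblasts.

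**Figure D2:**
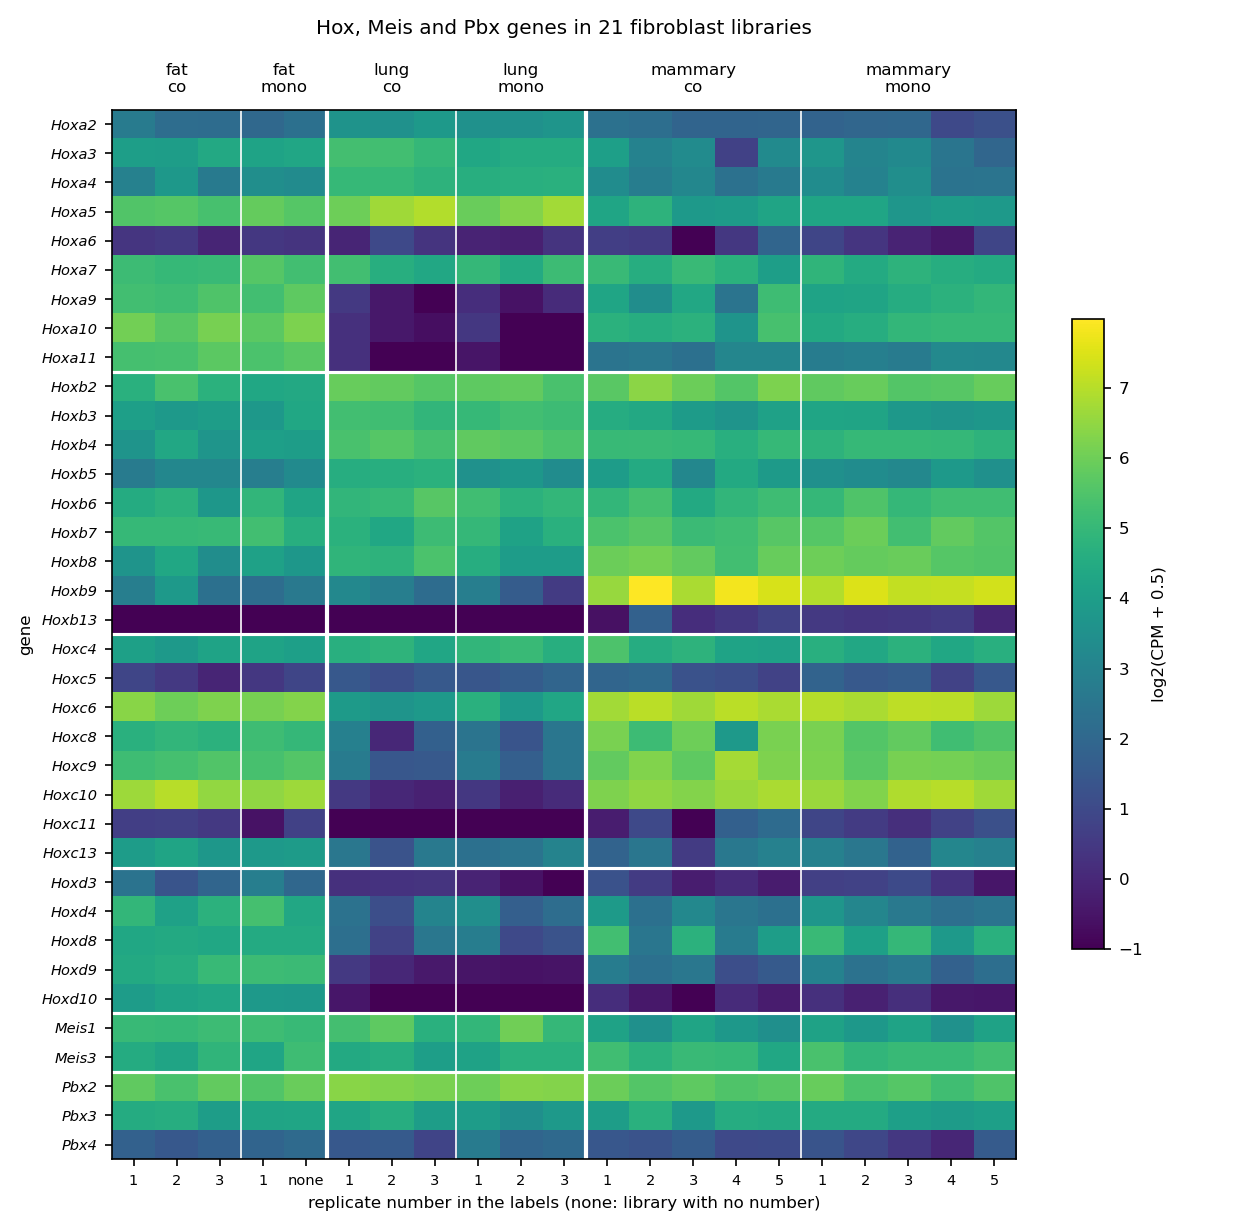
Level of 36 of the 38 members in each of the 21 libraries, on the log2(CPM + 0.5) scale shown by the colour bar, with members in rows and libraries grouped by organ and culture. Hoxa9 to Hoxa11, Hoxc10, Hoxd9 and Hoxd10 are at less than 1 CPM in all lung columns, and Hoxb13 is above 0 in mammary columns alone.

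Fat and lung fibroblasts differed most in the posterior genes. In co-cultures 13 of the 38 members were higher and 9 lower in fat than in lung, where 4.26% of all tested genes were higher and 5.15% lower (9.41% in either direction). In mono-cultures 12 were higher and 5 lower, where 5.48% and 3.80% of all tested genes were (9.28%). The median log2 fold change of the tested members was 0.25 in co-cultures and 0.42 in mono-cultures, against 0.00 and -0.03 over all genes. All 17 members that passed in mono-cultures passed in co-cultures in the same direction (77.3% of the 22 there). For all genes the shared calls were 628, or 54.5% of those in mono-cultures and 53.7% of those in co-cultures.

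Among paralog groups 9 to 13, with 11 members, 7 were higher in fat than in lung mono-cultures and 8 in co-cultures, and 0 were lower. Hoxc10, a gene of the lumbar spinal cord and hindlimb in the mouse embryo, had 100.1, 129 and 91.0 CPM in fat co-cultures and 89.1 and 102 CPM in fat mono-cultures. In lung it had 0.910, 0.489 and 0.390 CPM in co-cultures and 0.855, 0.369 and 0.583 CPM in mono-cultures. Every fat library was above every lung library, by 7.50 ± 0.32 in co-cultures (adjusted p = 2.94e-11) and 7.27 ± 0.32 in mono-cultures (adjusted p = 7.08e-11) on the log2 scale.

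Hoxa11, which patterns the limb and the uterus, had 40.1, 40.3 and 51.4 CPM in fat co-cultures and 42.9 and 50.3 CPM in fat mono-cultures. In lung it had 3 counts over the 3 co-cultures, all in replicate 1, and 1 count over the 3 mono-cultures. The groups did not overlap, and the pooled CPM were 238 times higher in fat co-cultures (95% counting interval 81.2 to 1160) and 707 times higher in fat mono-cultures (126 to 28000; adjusted p = 1.54e-07 and 8.51e-08). Its antisense transcript Hoxa11os, whose exons overlap it, was also higher in fat, with 642 counts against 5 in lung co-cultures and 588 against 3 in lung mono-cultures. The fitted differences of 7.18 ± 0.62 and 7.90 ± 0.68 rest on these few lung counts. The sources used here do not say whether counting used strand, so reads of the pair cannot be told apart.

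Hoxd10, a gene of the hindlimb level of the embryo, had 15.0, 17.9 and 19.1 CPM in fat co-cultures and 13.7 and 13.4 CPM in fat mono-cultures. It had 1 count over the lung co-cultures and 0 over the lung mono-cultures. Fat was above lung in every library. The ratio of pooled CPM was 283 in co-cultures (50.2 to 11200), and in mono-cultures fat was at least 68.9-fold higher, taking 3 counts over the lung group as the floor (adjusted p = 1.26e-06 and 1.77e-06).

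Hoxa9, Hoxa10 and Hoxd9 followed the same pattern. Hoxa10, needed for the uterus and the lumbar vertebrae in mice, had 66.9, 49.8 and 69.4 CPM in fat co-cultures and 51.6 and 73.5 CPM in fat mono-cultures, and at most 0.855 CPM in any lung library. Its log2 fold change was 7.50 ± 0.61 and 7.75 ± 0.64 in co- and mono-cultures (adjusted p = 4.07e-07 and 3.69e-07). These rest on 5 and 4 lung counts, and the counting intervals of the ratio of pooled CPM ran from 85.4 to 618 in co-cultures and from 91.8 to 869 in mono-cultures. All 4 mono-culture counts were in lung replicate 1, without which the fitted value was 11.19. Hoxa9, a posterior gene also used by blood stem cells, differed by 6.83 ± 0.75 and 6.54 ± 0.73, on 5 and 7 lung counts, with ratios of pooled CPM of 128 (54.6 to 397) and 97.6 (47.0 to 244). Hoxd9, which acts with its paralogs in the mammary gland of mice, differed by 5.59 ± 0.50 in co-cultures, while in mono-cultures with 3 lung counts the ratio of pooled CPM was 175 (59.6 to 855). Hoxc9, of the thoracic level, had 35.6 to 46.1 CPM in fat co-cultures and 40.5 and 46.8 CPM in fat mono-cultures, against 2.20 to 6.14 CPM and 2.77 to 6.20 CPM in lung. That is 3.53 ± 0.36 and 3.21 ± 0.37 on the log2 scale.

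Posterior genes did not all follow this pattern. Hoxb9 passed in neither culture between fat and lung, at 0.39 ± 0.51 in co-cultures and 0.55 ± 0.61 in mono-cultures. Hoxc13, known for hair and nail growth, was higher in fat co-cultures, at 15.3, 18.3 and 12.9 CPM against 5.46, 1.96 and 5.72 CPM in lung, by 1.79 ± 0.47 (adjusted p = 0.0216). In mono-cultures its difference was 1.33 ± 0.50 (adjusted p = 0.116). Hoxc11 had 13 and 7 counts over fat co- and mono-cultures and 0 over either lung group, so fat was at least 5.54-fold and 3.22-fold higher, without passing the test (adjusted p = 0.0623 and 0.152). Hoxb13, a gene of the tail end, had 0 counts in every fat and lung library.

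Among paralog groups 5 to 8, with 11 members, Hoxc6, Hoxc8 and Hoxd8 were higher in fat than in lung in both cultures. Hoxc6, which patterns the thorax and is used in the mammary gland, had 82.7, 63.2 and 74.3 CPM in fat co-cultures against 14.3, 11.99 and 14.2 CPM in lung co-cultures, and 70.6 and 78.9 CPM in fat mono-cultures against 25.2, 13.9 and 19.2 CPM in lung mono-cultures. The groups did not overlap, with differences of 2.44 ± 0.19 and 1.94 ± 0.20 (adjusted p = 2.90e-07 and 5.27e-06). Hoxc8, which patterns the thoracic skeleton, differed by 2.97 ± 0.61 and 3.04 ± 0.63. Hoxa5, Hoxb5 and Hoxb8 were lower in fat in co-cultures, by -1.09 ± 0.26, -1.67 ± 0.29 and -1.24 ± 0.27, whereas in mono-cultures their differences of -0.63 ± 0.30, -0.51 ± 0.32 and -0.26 ± 0.31 did not pass. The difference between the cultures itself did not pass for any member in tests of the response to co-culture between organs.

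Among the 10 members of paralog groups 1 to 4, the Hoxa and Hoxb genes that passed were lower in fat than in lung and the Hoxd genes higher. Hoxb4, which can expand blood stem cells, had 12.04, 20.6 and 12.2 CPM in fat co-cultures against 41.9, 48.2 and 39.6 CPM in lung, and 16.2 and 15.4 CPM in fat mono-cultures against 55.1, 51.3 and 42.5 CPM in lung. Every fat library was below every lung library, by -1.52 ± 0.19 and -1.65 ± 0.22 (adjusted p = 3.34e-05 and 6.29e-05). Hoxa2, which patterns the neural crest of the head had 4.01 to 6.15 CPM in fat co-cultures and 3.59 and 4.41 CPM in fat mono-cultures, against 11.3 to 13.5 CPM and 11.1 to 12.2 CPM in lung. Its differences were -1.36 ± 0.29 and -1.52 ± 0.33. Hoxa4, Hoxb2 and Hoxb3, which pattern the hindbrain and neck, were also lower in both cultures, with differences from -1.77 ± 0.32 to -0.82 ± 0.22.

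Hoxd3 and Hoxd4, of the neck vertebrae, went the other way. Hoxd4 had 30.5, 17.2 and 26.7 CPM in fat co-cultures against 4.78, 1.71 and 7.79 CPM in lung, and 39.3 and 20.3 CPM in fat mono-cultures against 10.3, 2.77 and 4.08 CPM in lung, higher by 2.33 ± 0.58 and 2.39 ± 0.61 (adjusted p = 0.0150 and 0.0163). Hoxd3 was higher by 2.15 ± 0.63 in co-cultures, and with 3 counts in lung mono-cultures the ratio of pooled CPM there was 26.2 (8.52 to 131). The exons of Hoxd3 and Hoxd4 overlap each other and Hoxd3os1, so reads of the 3 cannot be fully told apart. With all 5 Hoxd members higher in fat than in lung in both cultures, the Hoxd cluster was the 1 cluster whose members all passed in 1 direction.

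Of the cofactors, Pbx2 alone passed between fat and lung, in co-cultures. It had 54.3, 41.4 and 55.4 CPM in fat against 82.8, 76.1 and 71.6 CPM in lung, lower by -0.61 ± 0.18 (adjusted p = 0.0368). Exons of Pbx2 overlap those of Gpsm3 on the same strand. Meis1, Meis3, Pbx3 and Pbx4 differed by -0.32 to 0.50 on the log2 scale without passing. Hoxa3, Hoxa7, Hoxb6, Hoxb7, Hoxc4 and Hoxc5 passed in neither culture, at -1.27 to 0.54, and Hoxa6 had 9 counts over either fat group and 14 and 8 over lung co- and mono-cultures. Between fat and lung mono-cultures, calls ended for Hoxa2, Hoxa4, Hoxb3, Hoxd4 and Hoxd8 without fat replicate 1 (adjusted p 0.0789 to 0.225). They ended for Hoxa2, Hoxa4 and Hoxd8 without the unnumbered fat library (0.0502 to 0.209), for Hoxa4 without lung replicate 1 (0.0550), and for Hoxa4, Hoxd4 and Hoxd8 without lung replicate 2 (0.0554 to 0.0898) or 3 (0.0627 to 0.0935). In co-cultures, Hoxd8 and Pbx2 lost their calls without any 1 of the 6 fat and lung libraries. With them went Hoxb2 and Hoxd3 without fat replicate 1 (0.0551 to 0.123 for the 4 genes), Hoxc13 without fat replicate 2 (0.0787 to 0.196), and Hoxa5, Hoxb2 and Hoxd3 without fat replicate 3 (0.0514 to 0.0920). Without lung replicate 1 (0.0520 to 0.128) or 2 (0.0609 to 0.105) Hoxb2, Hoxc13, Hoxd3 and Hoxd4 went too, and without lung replicate 3 (0.0512 to 0.113) Hoxa5, Hoxb8 and Hoxd3. Hoxa9, Hoxa10, Hoxa11, Hoxb4, Hoxc6, Hoxc8, Hoxc9, Hoxc10, Hoxd9 and Hoxd10 kept their calls in both cultures in every refit tried. Members gained calls too, in co-cultures Hoxa3 without mammary co-culture replicate 4 (0.0412), Hoxb6 without mammary co-culture replicate 3 (0.0494) and Hoxc11 without mammary co-culture replicate 1 or 3 (0.0340 to 0.0446), and in mono-cultures Hoxc4 without mammary co-culture replicate 1 (0.0490). Hoxa3, Hoxb6 and Hoxc11 in co-cultures and Hoxc4 and Hoxc13 in mono-cultures also passed in at least 1 of the fits with mammary replicates 1 and 3 alone among mammary libraries, with the name form as a term, or without mammary co-culture replicates 2 and 4 (0.00329 to 0.0488).

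**Figure D3:**
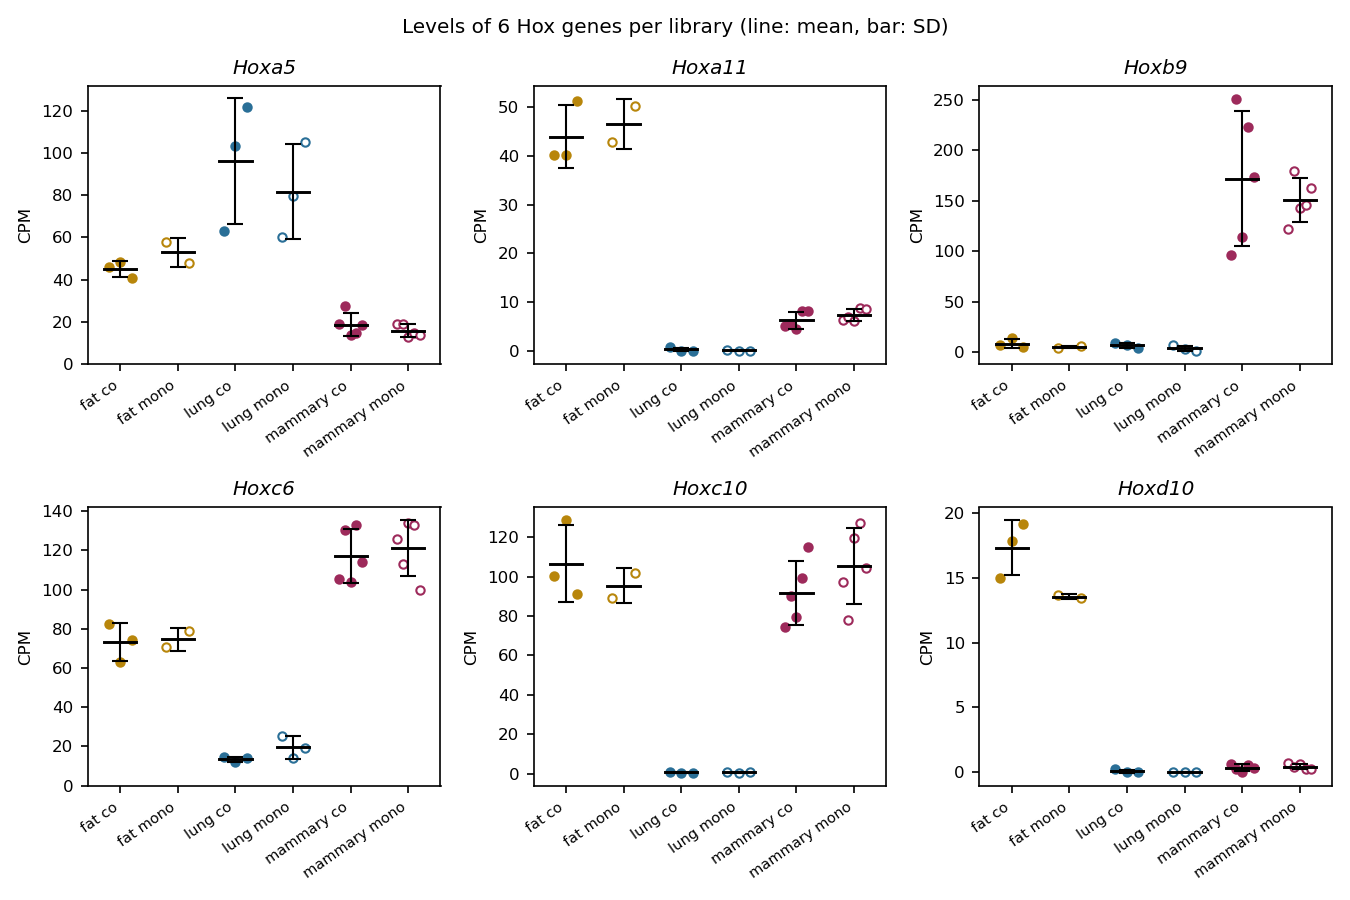
CPM of 6 Hox genes in each of the 21 libraries, 1 panel per gene and 1 point per library, filled for co-culture and open for mono-culture, with a line at the mean of each group and a bar of 1 SD. Hoxc10 was at 0.369 to 0.910 CPM in lung libraries and at 74.5 CPM or more in all others, and Hoxb9 was at 96.1 CPM or more in mammary libraries and at 13.6 CPM or less in all others.

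Fat and mammary fibroblasts differed in members of every cluster. In co-cultures 10 of the 38 members were higher and 8 lower in fat, where 13.3% of all tested genes were higher and 12.0% lower (25.4% in either direction). In mono-cultures 10 were higher and 5 lower, where 14.1% and 9.20% of all tested genes were (23.3%). The count of higher calls in mono-cultures was not stable, at 4 without fat mono-culture replicate 1. The median was 0.18 in co-cultures and 0.08 in mono-cultures, against 0.04 and 0.00 over all genes. Shared in both cultures and direction were 13 members, 86.7% of the 15 in mono-cultures and 72.2% of the 18 in co-cultures. For all genes the shares were 66.3% and 60.9%. By cluster, 4 of 5 Hoxd members were higher and 0 lower in both cultures, and 0 of 9 Hoxb members were higher while 5 were lower in co-cultures and 4 in mono-cultures. By paralog group, 5 and 4 of the 10 tested members of groups 9 to 13 were higher in co- and mono-cultures and 2 and 1 lower, and of the 10 of groups 5 to 8, 1 and 2 were higher and 4 and 2 lower.

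Hoxb9, which with its paralogs is needed for mammary gland growth in pregnant mice, stood at the mammary end. It had 6.69, 13.6 and 4.45 CPM in fat co-cultures, against 96.1, 251, 114, 223 and 174 CPM in mammary co-cultures. In mono-cultures it had 4.10 and 5.76 CPM in fat, against 122, 179.6, 143, 145 and 163 CPM in mammary fibroblasts. Every mammary library was at least as high as 96.1 CPM and no fat library exceeded 13.6 CPM, with differences of -4.37 ± 0.49 and -4.93 ± 0.61 (adjusted p = 3.10e-06 and 8.85e-06).

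Hoxd10 and Hoxa11 stood at the fat end. Hoxd10 had 0 to 0.630 CPM in mammary co-cultures and 0.226 to 0.671 CPM in mammary mono-cultures, against which the fat libraries named above were higher by 5.40 ± 0.44 and 4.86 ± 0.45 (adjusted p = 1.99e-07 and 6.15e-07). Hoxa11 had 5.04, 5.44, 4.49, 8.14 and 8.16 CPM in mammary co-cultures and 6.27, 6.92, 6.09, 8.75 and 8.58 CPM in mammary mono-cultures. All fat libraries, at 40.1 CPM or more, were above these, by 2.82 ± 0.32 and 2.67 ± 0.34 (adjusted p = 3.76e-06 and 1.22e-05). Hoxd9 was higher in fat by 2.64 ± 0.33 and 2.78 ± 0.35, and Hoxa10 by 1.27 ± 0.34 and 1.17 ± 0.37. Hoxc10, in contrast, differed by 0.22 ± 0.18 (95% interval -0.16 to 0.60) in co-cultures and -0.14 ± 0.21 (-0.58 to 0.30) in mono-cultures, and mammary libraries held 74.5 to 115 CPM and 77.9 to 127 CPM.

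Other posterior genes were spread between these ends. Hoxa9 was 1.13 ± 0.43 and 0.95 ± 0.47 higher in fat without passing (adjusted p = 0.0599 and 0.160). Hoxc9 was lower in fat co-cultures by -0.87 ± 0.28 (adjusted p = 0.0276) and differed by -0.57 ± 0.32 in mono-cultures (adjusted p = 0.216). Hoxc13 was higher in fat co-cultures, by 1.81 ± 0.41 (adjusted p = 0.00309), and differed by 1.20 ± 0.45 in mono-cultures (adjusted p = 0.0593). Hoxb13 had 22 counts over the mammary co-cultures, 12 of them in replicate 2, and 18 over the mammary mono-cultures. With 0 in fat it was at least 4.58-fold lower in fat co-cultures and at least 2.93-fold lower in fat mono-cultures, and without the filter on low counts it passed the test (adjusted p = 0.0152 and 0.0440).

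In the middle of the clusters, Hoxa5 was higher and Hoxb8 lower in fat than in mammary fibroblasts. Hoxa5, needed for lung growth in mice, had 46.0, 48.2 and 40.9 CPM in fat co-cultures against 18.7, 27.7, 13.8, 14.8 and 18.4 CPM in mammary co-cultures. In mono-cultures it had 57.8 and 48.0 CPM in fat against 19.0, 18.8, 12.6, 14.8 and 13.5 CPM in mammary fibroblasts. The groups did not overlap, with differences of 1.26 ± 0.24 and 1.74 ± 0.26 (adjusted p = 5.88e-04 and 5.80e-05). Hoxb8, which is used in blood progenitors and the spinal cord, had 12.04, 19.9 and 10.02 CPM in fat co-cultures against 61.1, 68.5, 55.5, 37.5 and 58.9 CPM in mammary co-cultures. It had 16.9 and 12.9 CPM in fat mono-cultures against 63.6, 56.8, 59.8, 48.9 and 46.5 CPM in mammary mono-cultures. No groups overlapped, and the differences were -2.01 ± 0.26 and -1.88 ± 0.30 (adjusted p = 1.42e-05 and 1.27e-04). Hoxc6 was lower in fat by -0.68 ± 0.16 and -0.70 ± 0.19. Hoxb5 and Hoxc5 were lower in fat in co-cultures, by -1.07 ± 0.27 and -1.44 ± 0.45, and Hoxa7 was higher in fat in mono-cultures, by 0.79 ± 0.26. Exons of Hoxc5 overlap those of Hoxc10. Hoxb6, Hoxb7, Hoxc8, Hoxc11 and Hoxd8 passed in neither culture, at -0.91 to 0.15, and Hoxa6 had 9 counts over either fat group against 25 and 19 over mammary co- and mono-cultures. Hoxd8 averaged 32.3 CPM in mammary co-culture replicates 1 and 3, above the fat co-cultures at 20.03 to 21.3 CPM. In mammary co-culture replicates 2, 4 and 5 it averaged 8.90 CPM, below the fat co-cultures.

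Among the anterior genes, Hoxb2 and Hoxb4 were lower and Hoxd3 and Hoxd4 higher in fat in both cultures. Hoxb2, of the hindbrain, had 25.2, 41.2 and 26.3 CPM in fat co-cultures and 19.7 and 21.1 CPM in fat mono-cultures, against 46.8 to 85.5 CPM and 47.0 to 59.4 CPM in mammary fibroblasts. The groups did not overlap, with differences of -1.04 ± 0.20 and -1.40 ± 0.24 (adjusted p = 8.16e-04 and 2.74e-04). Hoxb4 differed by -1.04 ± 0.17 and -0.92 ± 0.20. Hoxd4 was higher by 1.70 ± 0.48 and 2.05 ± 0.52, and Hoxd3 by 1.86 ± 0.54 and 2.36 ± 0.56. Hoxa2, Hoxa3, Hoxa4, Hoxb3 and Hoxc4 did not pass in either culture, at -0.68 to 1.28.

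Meis1, the Hox cofactor of heart, eye and blood, was higher in fat than in mammary fibroblasts. It had 32.9, 31.9 and 34.9 CPM in fat co-cultures against 17.3, 10.9, 18.6, 13.4 and 10.6 CPM in mammary co-cultures, and 35.6 and 32.4 CPM in fat mono-cultures against 17.5, 13.3, 18.1, 11.2 and 17.4 CPM in mammary mono-cultures. No fat library was below 31.9 CPM and no mammary library above 18.6 CPM, with differences of 1.23 ± 0.27 and 1.14 ± 0.30 (adjusted p = 0.00245 and 0.00915). Pbx4, known from the testis, was higher in fat mono-cultures by 1.27 ± 0.43 (adjusted p = 0.0377), at under 4 CPM in both organs. Meis3, Pbx2 and Pbx3 did not pass in either culture, at -0.37 to 0.20.

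Several of these calls rested on single libraries. Without fat mono-culture replicate 1, those of Hoxa7, Hoxa10, Hoxc6, Hoxd3, Hoxd4, Meis1 and Pbx4 ended in mono-cultures (adjusted p 0.0631 to 0.288), and without the unnumbered fat mono-culture those of Hoxa7, Hoxa10, Hoxc6 and Pbx4 (0.0523 to 0.268). Those of Hoxa7, Hoxa10 and Pbx4 also ended without single mammary mono-cultures, of all 5 replicates (0.0508 to 0.0692). In co-cultures, Hoxc9, Hoxd3 and Hoxd4 lost their calls without fat replicate 1 (0.0619 to 0.108), Hoxc5 and Hoxc9 without fat replicate 2 (0.0703 to 0.0834) or 3 (0.0501 to 0.127), and Hoxc5 without mammary replicate 1 (0.0541) or 2 (0.0600). Hoxa3 passed in mono-cultures without mammary co-culture replicate 1 or 4 or mammary mono-culture replicate 1 (0.00679 to 0.0407). Hoxb7 passed there without lung co-culture replicate 3, lung mono-culture replicate 2 or mammary mono-culture replicate 3 (0.0331 to 0.0494), and Hoxc13 without lung co-culture replicate 2 or mammary co-culture replicate 3 or 4 (0.0230 to 0.0497). In co-cultures, Hoxa9 passed without lung co-culture replicate 1 or 3 or mammary co-culture replicate 5 (0.0103 to 0.0499). Without single mammary co-cultures, Hoxa3 passed without replicate 1 (0.0293), Hoxb6 without 3 (0.0398), Hoxc4 without 4 or 5 (0.0217 to 0.0256) and Hoxc8 without 4 (0.0349). Within mammary replicates 1 and 3, whose columns of normalised counts share a form of name with fat and lung, Meis1 differed by 0.87 in co-cultures and 0.96 in mono-cultures and no longer passed (adjusted p = 0.0845 and 0.0895). There the calls of Hoxb5, Hoxc6, Hoxc9, Hoxd3 and Hoxd4 ended too in co-cultures (0.0526 to 0.261), and those of Hoxa7, Hoxd3, Hoxd4 and Pbx4 in mono-cultures (0.0511 to 0.122). With the name form as a term, calls ended for Hoxc9, Hoxd3 and Hoxd4 in co-cultures (0.0724 to 0.0956) and for Hoxa7, Hoxd4, Meis1 and Pbx4 in mono-cultures (0.0532 to 0.162). Without mammary co-culture replicates 2 and 4, those of Hoxc5, Hoxc9, Hoxd3 and Hoxd4 ended in co-cultures (0.0563 to 0.0934). In at least 1 of these 3 fits Hoxa9, Hoxc4 and Hoxc8 passed in co-cultures and Hoxa3, Hoxa9, Hoxc4 and Hoxc13 in mono-cultures (0.00212 to 0.0498). With the compared groups alone in the fit, the calls of Hoxb5 in co-cultures (0.0608) and Pbx4 in mono-cultures (0.105) ended. Hoxa5, Hoxa11, Hoxb2, Hoxb4, Hoxb8, Hoxb9, Hoxd9 and Hoxd10 kept their calls in both cultures in every refit tried.

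Lung and mammary fibroblasts differed in both directions along the clusters. In co-cultures 9 of the 38 members were higher and 13 lower in lung, where 16.9% of all tested genes were higher and 15.3% lower (32.2% in either direction). In mono-cultures 9 were higher and 15 lower, where 21.2% and 19.1% of all tested genes were (40.3%), so the share of higher calls was near the background. The median was -0.21 in co-cultures and -0.27 in mono-cultures, against 0.03 and 0.03 over all genes. Shared in both cultures and direction were 21 members, 87.5% of the 24 in mono-cultures and 95.5% of the 22 in co-cultures, and for all genes the shares were 66.7% and 83.6%. Of paralog groups 9 to 13, 8 of 11 members were lower in lung in co-cultures and 9 in mono-cultures, with 0 higher. Of paralog groups 1 to 4, 5 of 10 members were higher in either culture, with 0 lower in co-cultures and 1 in mono-cultures.

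Hoxc10, at under 1 CPM in all lung libraries, was lower than in mammary fibroblasts by -7.28 ± 0.31 in co-cultures and -7.41 ± 0.31 in mono-cultures (adjusted p = 3.14e-11 and 7.59e-12). Hoxb9 had 8.64, 6.60 and 4.03 CPM in lung co-cultures and 6.63, 2.59 and 0.971 CPM in lung mono-cultures, below the mammary libraries named above by -4.77 ± 0.50 and -5.49 ± 0.53 (adjusted p = 7.85e-07 and 1.84e-07). Both genes separated every lung from every mammary library. Hoxa11, with 3 and 1 counts over lung co- and mono-cultures, had ratios of pooled CPM, lung over mammary, of 0.0305 (0.00621 to 0.0914) and 0.00901 (0.000227 to 0.0509). Hoxd9 was lower in lung co-cultures by -2.96 ± 0.49 (adjusted p = 1.24e-04) and, with 3 counts in lung mono-cultures, had a ratio there of 0.0391 (0.00795 to 0.117). Hoxa10 was lower in lung by -6.24 ± 0.60 and -6.58 ± 0.61, with counting intervals of the ratio of 0.00389 to 0.0283 and 0.00258 to 0.0245. Without lung mono-culture replicate 1 its fitted mono-culture value was -10.02. Hoxa9 was lower by -5.70 ± 0.73 and -5.58 ± 0.69, with intervals of the ratio of 0.00558 to 0.0407 and 0.00792 to 0.0411, and Hoxc9 by -4.40 ± 0.35 and -3.77 ± 0.34. Hoxc11 had 0 counts in lung and 31 and 27 over mammary co- and mono-cultures, so that lung was at least 8.25-fold and 6.05-fold lower (adjusted p = 0.00745 and 0.0119). Mammary co-culture replicates 1 and 3 held 2 and 0 of these counts, and replicates 2, 4 and 5 held 6, 10 and 13. Each of these Hoxc11 calls held in its 24 refits, where other calls had up to 29. Hoxb13 was at least 5.86-fold and 4.03-fold lower in lung, and passed without the filter on low counts (adjusted p = 0.00800 and 0.0135). Hoxd10 passed in mono-cultures, with 0 against 10 counts and lung at least 2.24-fold lower (adjusted p = 0.00551), and not in co-cultures, with 1 against 8 counts (adjusted p = 0.0793).

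Among the central genes, Hoxa5 was the member higher in lung. It had 63.2, 103 and 122 CPM in lung co-cultures and 60.3, 79.8 and 105 CPM in lung mono-cultures, above every mammary library, of which the highest held 27.7 CPM. The differences were 2.36 ± 0.23 and 2.37 ± 0.23 (adjusted p = 3.32e-07 and 2.00e-07). With the fat values, Hoxa5 was ordered lung, fat, mammary, and the neighbours lung and fat did not pass in mono-cultures (adjusted p = 0.224), although their libraries did not overlap. Hoxb7, Hoxb8, Hoxc6, Hoxc8 and Hoxd8 were lower in lung in both cultures, from -3.88 ± 0.59 for Hoxc8 in co-cultures to -0.64 ± 0.22 for Hoxb7 in co-cultures. Hoxc6 was ordered mammary, fat, lung, and each pair of neighbours passed the test in both cultures. Its call between fat and mammary fibroblasts ended in mono-cultures without either fat library and in co-cultures with mammary replicates 1 and 3 alone, at -0.54 (adjusted p = 0.0526).

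Among the anterior genes, Hoxa2, Hoxa3, Hoxa4, Hoxb3 and Hoxb4 were higher in lung in both cultures. Hoxa4 had 31.8, 32.0 and 27.4 CPM in lung co-cultures against 9.76, 6.43, 8.34, 4.65 and 6.04 CPM in mammary co-cultures, and 24.4, 24.6 and 25.3 CPM in lung mono-cultures against 9.85, 7.32, 10.2, 4.86 and 4.97 CPM in mammary mono-cultures. The groups did not overlap, and the differences were 2.09 ± 0.28 and 1.73 ± 0.28 (adjusted p = 9.91e-06 and 5.62e-05). Hoxa2 differed by 1.69 ± 0.25 and 2.10 ± 0.26, and Hoxb3 by 0.98 ± 0.21 and 1.20 ± 0.21. Hoxa3, needed for the thymus, differed by 2.01 ± 0.42 and 1.51 ± 0.43, and its exons overlap the antisense transcripts Hoxaas2 and Hoxaas3. Hoxb4 differed by 0.48 ± 0.16 and 0.73 ± 0.16. Hoxd3 was lower in lung in mono-cultures, with 3 against 22 counts, a ratio of pooled CPM of 0.203 (0.0389 to 0.675; adjusted p = 0.0387).

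Of the cofactors, Meis1 had 39.1, 53.3 and 25.6 CPM in lung co-cultures and 30.6, 65.4 and 30.9 CPM in lung mono-cultures, above the mammary libraries, all at 18.6 CPM or less. The differences were 1.46 ± 0.27 and 1.45 ± 0.27 (adjusted p = 3.50e-04 and 2.53e-04). Pbx2, a Pbx gene whose loss mice tolerate, was higher in lung by 0.57 ± 0.16 and 0.68 ± 0.16, and Pbx4 in mono-cultures by 1.58 ± 0.38 (adjusted p = 0.00265). Meis3, at -0.57 ± 0.24 and -0.60 ± 0.24, did not pass (adjusted p = 0.0760 and 0.0502). Hoxa7, Hoxb2, Hoxb5, Hoxb6, Hoxc4, Hoxc5, Hoxc13, Hoxd4 and Pbx3 passed in neither culture, at -0.63 to 0.60.

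The Hoxd3 call ended without lung mono-culture replicate 2 or 3 (adjusted p = 0.104 and 0.149) and without mammary mono-culture replicate 1, 2 or 3 (0.0573, 0.0684 and 0.0760). In co-cultures, Hoxb4, Hoxb7 and Hoxb8 lost their calls without lung replicate 1 (0.0583 to 0.108) and, with Hoxd8, without lung replicate 2 (0.0504 to 0.180). Hoxb4 also did so without mammary co-culture replicate 4 (0.0659), and Hoxb7 without replicate 2 or 5 (0.0754 and 0.0720). Without lung mono-culture replicate 3, the library with the conflicting labels, the call of Hoxd3 was the 1 that ended between lung and mammary fibroblasts. Meis3 passed in mono-cultures in 7 refits, without fat co-culture 2 or 3, either fat mono-culture, lung co-culture 3 or mammary co-culture 1 or 5 (0.0357 to 0.0498), and in co-cultures Meis3 without mammary replicate 5 (0.0314), Hoxb5 without mammary replicate 2 or 4 (0.0337 to 0.0403) and Hoxd10 without lung replicate 1 or mammary replicate 3 (0.0329 to 0.0454). With mammary replicates 1 and 3 alone, calls ended for Hoxb4, Hoxb7 and Pbx2 in co-cultures (0.157 to 0.195) and for Pbx2 in mono-cultures (0.0542). They ended for the same genes in co-cultures with the name form as a term (0.0651 to 0.178) and without mammary co-culture replicates 2 and 4 (0.0568 to 0.0783), and for Hoxa3 in mono-cultures with that term (0.0604). With the compared groups alone in the fit, those of Hoxb4, Hoxb7 and Hoxd8 ended in co-cultures (0.0607 to 0.0694), and with DESeq2 that of Hoxd3 in mono-cultures (0.0592). Hoxb5 and Meis3 in co-cultures and Meis3 in mono-cultures passed in at least 1 of the 3 fits that concern the mammary libraries (0.00498 to 0.0492).

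**Figure D4:**
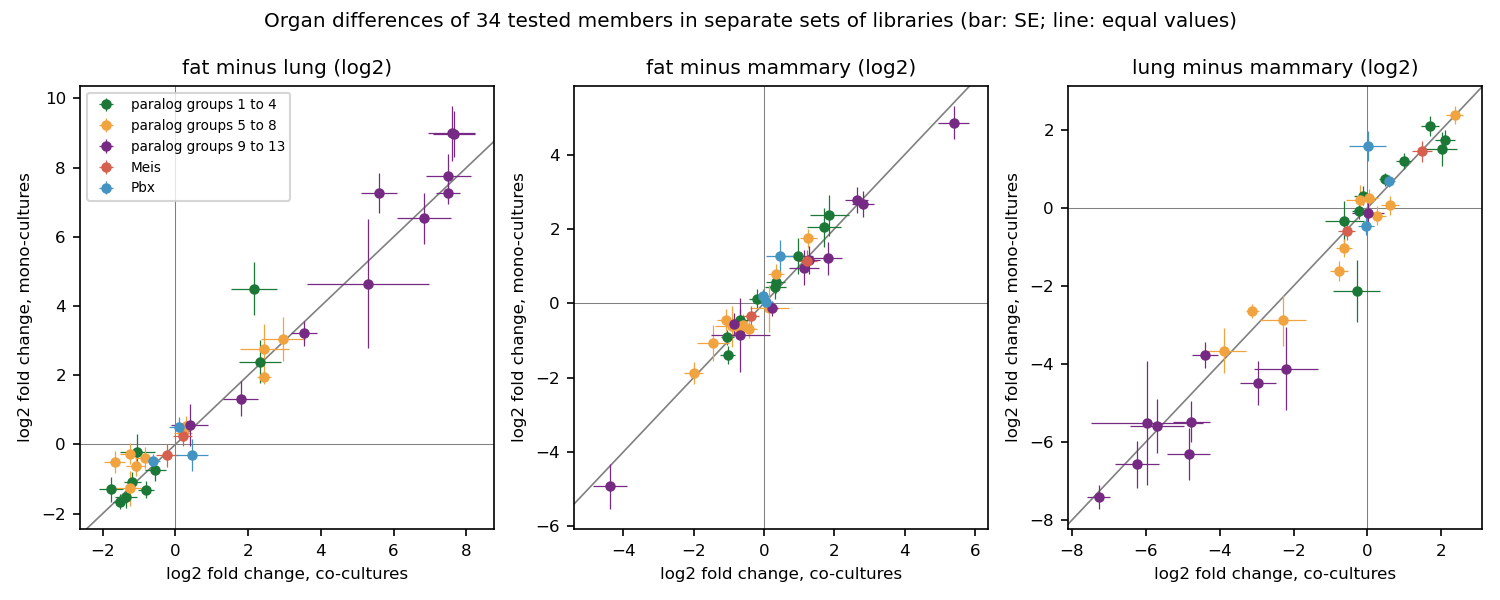
Log2 fold changes of 34 of the 36 tested members between organs, in 3 panels, with co-cultures on the horizontal axis, mono-cultures on the vertical axis, bars of 1 SE and a line at equal values. Purple points, paralog groups 9 to 13, lie farthest from 0 where lung is compared, and the fitted values of Hoxa9, Hoxa10, Hoxa11, Hoxc11, Hoxd9 and Hoxd10 against lung rest on 8 or fewer lung counts a group, and that of Hoxd3 on 3 in lung mono-cultures.

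Co-culture with macrophages changed no member by the test in any organ. Of the 38 members, 0 were higher or lower in fat co-cultures than in fat mono-cultures, where 0.201% of all tested genes passed (0.0403% higher and 0.161% lower). In lung 0 did so, where 1.31% passed (1.17% and 0.145%), and in mammary fibroblasts 0, where 3.65% passed (2.36% and 1.29%). By edgeR's test without adjustment, 1 member in fat, 5 in lung and 1 in mammary fibroblasts had a p under 0.05, and DESeq2 called 0, 1 and 0 members after adjustment. The median log2 fold change of the tested members was -0.08 in fat, 0.06 in lung and 0.01 in mammary fibroblasts, against 0.02, -0.03 and 0.00 over all genes. The members reported ranged from -0.59 to 0.75 in fat, from -1.16 to 1.76 in lung and from -0.49 to 0.57 in mammary fibroblasts. The 95% interval lay within 1 log2 unit on either side of 0 for 20 members in fat, 15 in lung and 23 in mammary fibroblasts, and for the others it reached farther. The macrophage markers, 10 of 10 in the table, summed to between 471 and 2872 CPM in fat co-cultures against 257 and 323 CPM in fat mono-cultures, between 1507 and 2389 CPM against between 104 and 488 CPM in lung, and between 657 and 1829 CPM against between 18.0 and 509 CPM in mammary fibroblasts. Their part in these differences was not tested.

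Hoxb5, a gene of lung branching and the gut in mouse embryos, came nearest to passing. It had 23.7, 24.0 and 25.9 CPM in lung co-cultures, against 11.1, 13.1 and 9.71 CPM in lung mono-cultures. The groups did not overlap, and the difference of 1.11 ± 0.28 had an adjusted p of 0.0577. In mammary fibroblasts it had 15.1, 21.8, 8.34, 21.2 and 14.2 CPM in co-cultures, against 11.0, 9.69, 8.70, 14.1 and 10.8 CPM in mono-cultures. These overlapped, at 0.57 ± 0.22 (adjusted p = 0.176). In fat it had 6.15, 8.38 and 8.46 CPM in co-cultures, against 6.67 and 9.21 CPM in mono-cultures, at -0.04 ± 0.33.

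The call of Hoxb5 in lung depended on the fit. It passed with DESeq2 (adjusted p = 0.00377), with RLE scaling (0.0467), with lung alone in the fit (0.0106) and without mammary co-culture replicate 2, 3 or 4 (0.0458, 0.0180 and 0.0415). It also passed with the name form as a term (0.0193), with mammary replicates 1 and 3 alone among mammary libraries (0.0208) and without both mammary co-culture replicates 2 and 4 (0.0156). In mammary fibroblasts it passed without mammary co-culture replicate 3 alone, at 0.77 (adjusted p = 0.0379). Its antisense neighbour Hoxb5os, whose exons overlap it, had 13.6 ± 0.923 CPM in lung co-cultures and 8.54 ± 2.01 CPM in lung mono-cultures (SD, n = 3 each), at 0.67 ± 0.45 without passing (adjusted p = 0.778), so reads of the pair cannot be told apart.

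Other members with an unadjusted p under 0.05 did not pass. Hoxb8 had 28.7, 27.1 and 43.3 CPM in lung co-cultures, against 23.7, 15.0 and 15.2 CPM in lung mono-cultures, without overlap and at 0.89 ± 0.27 (adjusted p = 0.135). Hoxc6 in lung differed by -0.52 ± 0.19, Pbx3 by 0.54 ± 0.25 and Pbx4 by -1.16 ± 0.42 (adjusted p = 0.289, 0.509 and 0.286). Hoxb2 in fat had 25.2, 41.2 and 26.3 CPM in co-cultures, against 19.7 and 21.1 CPM in mono-cultures, at 0.60 ± 0.25 (adjusted p = 0.419). Hoxa3 in lung was not among the members with an unadjusted p under 0.05, at 0.72 ± 0.47 (adjusted p = 0.774). Its groups did not overlap either, at 39.1, 37.7 and 30.9 CPM in co-cultures and 19.9, 22.7 and 22.7 CPM in mono-cultures. With lung alone in the fit it passed (adjusted p = 0.0466).

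The response to co-culture was also compared between organs. For 0 of 38 members did the response in fat differ from that in lung, where 0.00% of all tested genes did, in fat from that in mammary fibroblasts, where 0.0242% did, or in lung from that in mammary fibroblasts, where 0.0966% did (0.0886% higher and 0.00805% lower). Unadjusted p values under 0.05 were found for 3, 0 and 2 members, and DESeq2 called 0 in each.

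**Figure D5:**
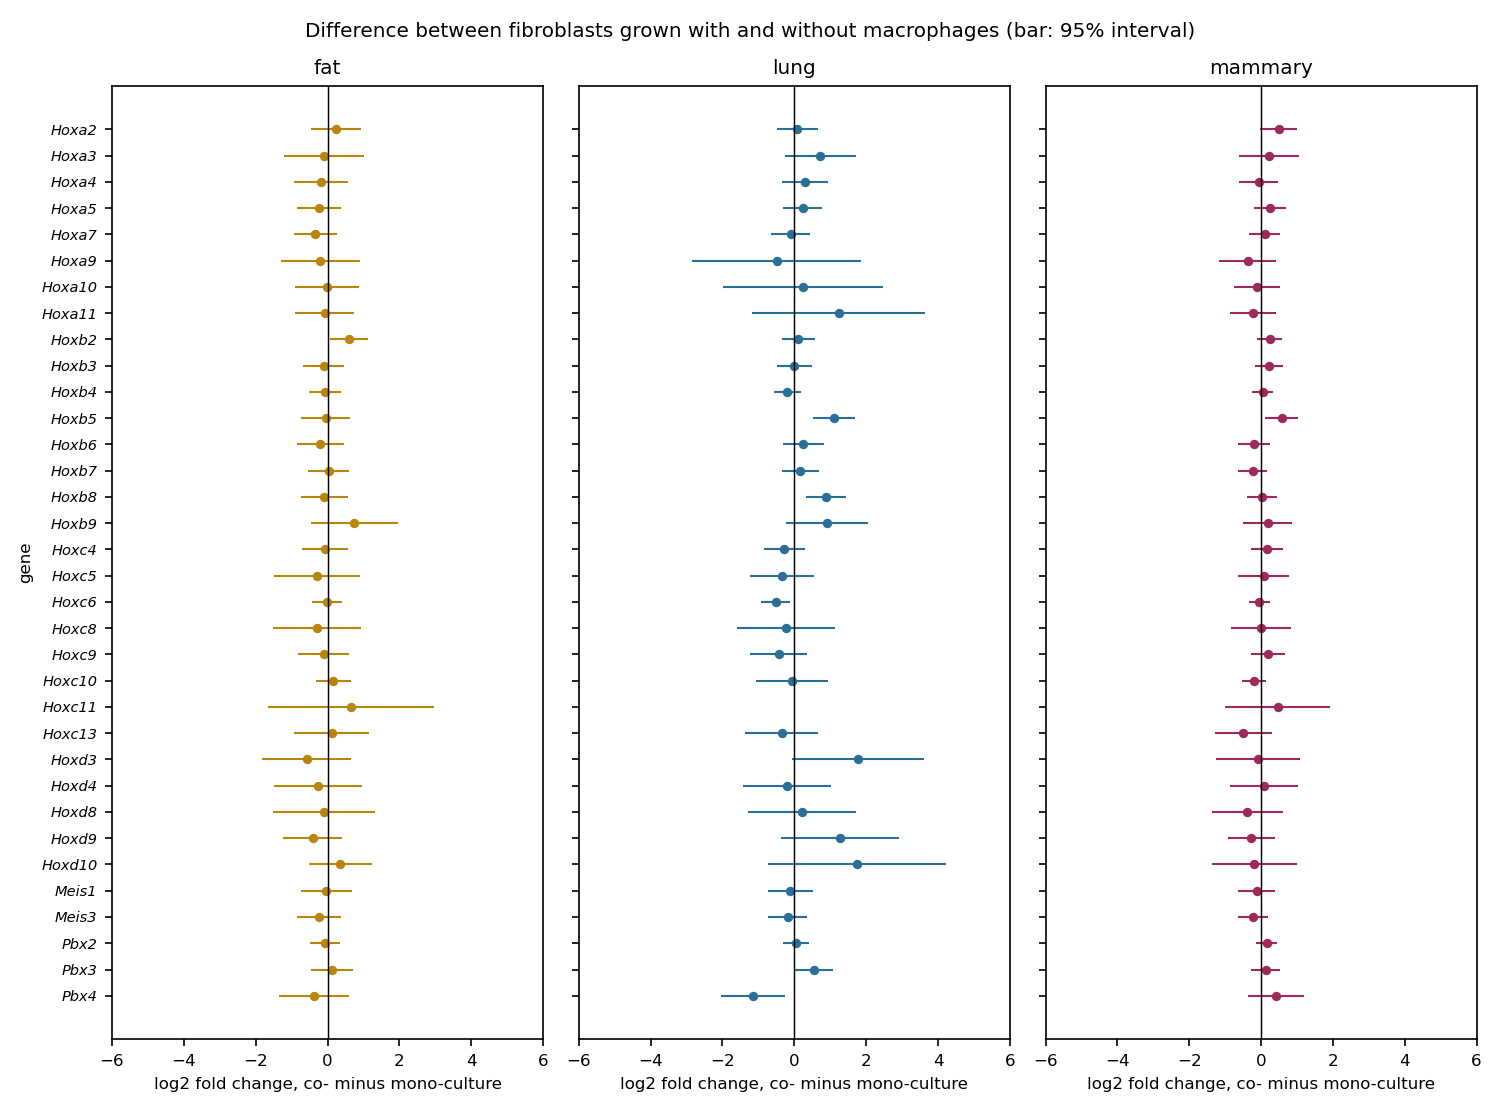
Log2 fold change of 34 of the 36 tested members in co-culture over mono-culture, by organ, with bars of the 95% interval. No member passed the test in any organ, and Hoxb5 in lung, at 1.11, had the lowest adjusted p (0.0577). Hoxc11 has no lung point because it had 0 counts in every lung library.

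Other genes tied to the Hox system were counted as lists, chosen as the members were with earlier results known. Of the Hox cluster transcripts that are no Hox gene, 6 were tested. Hotairm1, a noncoding transcript of the Hoxa cluster, was the 1 that changed with co-culture, higher in lung co-cultures, at 142 ± 22.9 CPM against 89.4 ± 8.78 CPM in mono-cultures (SD, n = 3 each), by 0.67 ± 0.16 (adjusted p = 0.0455). That call ended in 13 of 29 refits (0.0506 to 0.189), among them without lung co-culture replicate 1 or 2, any lung mono-culture, fat co-culture replicate 1, mammary co-culture replicate 1, 2 or 5, or mammary mono-culture replicate 4 or 5. Between organs, Hoxa11os followed Hoxa11, with 50.8 ± 6.38 CPM in fat co-cultures, 0.391 ± 0.352 CPM in lung co-cultures and 8.98 ± 2.36 CPM in mammary co-cultures. Hoxaas2 had 1.32 ± 0.505 CPM in fat, 8.37 ± 2.51 CPM in lung and 1.33 ± 0.582 CPM in mammary co-cultures, lower in fat than in lung by -2.62 ± 0.47.

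Among the 4 TALE relatives, Pknox2, a relative of Meis, was higher in fat than in lung, by 2.34 ± 0.46 in co-cultures and 2.27 ± 0.49 in mono-cultures, and higher in fat than in mammary fibroblasts, by 2.93 ± 0.39 and 2.26 ± 0.42. It averaged 80.0 ± 3.19 CPM in fat, 15.9 ± 6.99 CPM in lung and 10.3 ± 5.85 CPM in mammary co-cultures. Pknox1 was lower in fat than in lung, by -0.97 ± 0.15 and -0.89 ± 0.17, and than in mammary fibroblasts, by -0.98 ± 0.14 and -0.80 ± 0.16. Tgif1, a TALE repressor, was the 1 TALE relative that changed with co-culture, with 49.1 ± 11.6 CPM in mammary co-cultures against 83.4 ± 16.9 CPM in mammary mono-cultures, by -0.76 ± 0.16 (adjusted p = 0.0127). That call ended in 3 of 29 refits (0.0525 to 0.111), which were without mammary mono-culture replicate 4, with mammary libraries alone and with mammary replicates 1 and 3 alone. Without the unnumbered fat mono-culture, the calls of Pknox1 and Pknox2 between fat and lung mono-cultures ended (0.0725 and 0.0861).

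Of 19 Polycomb genes, whose complexes keep Hox genes silent, 0 passed with co-culture in any organ. Between organs, 2 were higher and 0 lower in lung than in mammary co-cultures and 4 and 0 in mono-cultures, 1 and 2 were lower and 0 higher in fat than in lung co- and mono-cultures, and 1 was lower in fat than in mammary co-cultures, with 1 higher and 1 lower in mono-cultures. Of all tested genes, 32.2% and 40.3% passed between lung and mammary co- and mono-cultures, 9.41% and 9.28% between fat and lung, and 25.4% and 23.3% between fat and mammary fibroblasts. List medians between organs lay between -0.39 and 0.38. The call of Phc3, lower in fat than in lung mono-cultures by -0.86 ± 0.26 (adjusted p = 0.0441), ended in 14 of 29 refits (0.0501 to 0.282), with RLE scaling, without the filter, with a block by replicate number, and without fat co-culture 1 or 3, either fat mono-culture, lung co-culture 3, any lung mono-culture, mammary co-culture 3 or mammary mono-culture 2 or 5. That of Ring1, lower in fat than in mammary mono-cultures by -0.82 ± 0.27, ended in 8 (0.0638 to 0.332), among them without either fat library or mammary replicate 4 or 5. That of Jarid2, lower in fat than in mammary co-cultures by -0.97 ± 0.30, ended in 7 (0.0557 to 0.153), among them without any 1 fat library. Cbx6, a Polycomb subunit, was higher in lung than in mammary fibroblasts by 0.66 ± 0.14 in co-cultures and 0.98 ± 0.14 in mono-cultures, and lower in fat than in lung by -0.83 ± 0.16 and -0.83 ± 0.19, the mono-culture call ending without either fat library (0.0730 and 0.0617). Cbx7 was higher in lung than in mammary fibroblasts by 1.85 ± 0.42 and 1.89 ± 0.42. Of 11 listed genes that act to keep Hox genes on, trithorax genes and others such as Kdm6b, 0 passed with co-culture. List medians between organs were -0.16 to 0.00. The trithorax gene Kmt2a was higher in lung than in mammary mono-cultures by 0.52 ± 0.15 (adjusted p = 0.00785), a call that held in all 29 refits. Kdm6b was lower in fat than in mammary fibroblasts by -0.83 ± 0.18 in co-cultures and -0.61 ± 0.21 in mono-cultures. The mono-culture call of Kdm6b ended without fat replicate 1 (0.509) or mammary replicate 1, 2, 4 or 5 (0.0545 to 0.0814).

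Of 14 tested genes of retinoic acid signalling, which switches on Hox genes in the embryo, 0 passed with co-culture in any organ. In fat compared with mammary fibroblasts, 5 were higher and 5 lower in co-cultures and 6 and 3 in mono-cultures, where 25.4% and 23.3% of all tested genes passed. Between fat and lung, 2 were higher and 3 lower in co-cultures and 2 and 2 in mono-cultures, where 9.41% and 9.28% passed. Between lung and mammary fibroblasts, 4 were higher and 4 lower in co-cultures and 5 and 5 in mono-cultures, where 32.2% and 40.3% passed. The medians were 0.50 and 0.76 in fat against mammary, -0.04 and 0.04 in fat against lung, and 0.01 and 0.29 in lung against mammary co- and mono-cultures. Aldh1a1, which makes retinoic acid, was higher in lung than in mammary fibroblasts by 4.90 ± 0.59 and 6.00 ± 0.62. Crabp1, which binds retinoic acid in the cytoplasm, was lower in fat than in mammary fibroblasts by -5.17 ± 0.76 and -6.01 ± 1.04. These fitted values rest on 12 counts over the fat co-cultures and 3 over the fat mono-cultures, against 656 and 433 in mammary fibroblasts. Of 8 proliferation genes, 0 passed with co-culture, and Rrm2 was the 1 that passed between organs, lower in lung than in mammary mono-cultures by -1.44 ± 0.54 (adjusted p = 0.0407). It no longer passed without any 1 of the lung mono-cultures or without mammary mono-culture replicate 2, 4 or 5 (0.0592 to 0.157). Of the 5 axial regulators listed, only Gmnn was tested and it passed in no comparison.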

How the data were processed

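The labels describe bulk 3′-end mRNA libraries of fibroblasts and, in a separate table, of macrophages. The authors deposited raw read counts per gene and, beside them, normalised counts (a signal: the raw count divided by 1 size factor per library, as the values show). Per the submitters' processing notes bcl2fastq, STAR 2.4.2a, HTSeq and genome build mm10 were named. Other versions, the annotation and strand use: not given in the sources used here. Every test started from the raw counts that the authors deposited.

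Counts were fitted with edgeR 4.0.16 in R 4.3.3 (TMM scaling, filterByExpr with a minimum count of 10, robust quasi-likelihood, 1 coefficient for each of the 6 groups). P-values were adjusted by the Benjamini-Hochberg method over 12421 genes, and a call needs one under 0.05. The fit had 15 residual degrees of freedom, and the square root of its common dispersion was 29.1%. A fold against a group at 0 uses a floor of 3 counts over the group. For members, a group with 1 to 3 counts is given as a ratio with a 95% counting interval. Genes of the other lists are given as fitted values, with their counts where these were so low. Such intervals and floors cover counting error only. The script was tested on simulated data.

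Members are named whatever their values, except that results of a few genes are not reported here. From the other lists, the 3 called genes with the smallest adjusted p in a comparison may be named. Members and lists were chosen with earlier results of these data known. Alternatives were DESeq2 1.42.0, RLE scaling, no filter, the compared groups alone, replicate blocks and leaving out each library. A term for the form of the column name, mammary libraries of 1 form, and leaving out mammary co-culture replicates 2 and 4 were chosen after seeing the data.

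Same-numbered co- and mono-cultures were checked for pairing by the correlation of their deviations from the group means. In mammary fibroblasts it was 0.410, 0.485, 0.555, 0.408 and 0.293 for replicates 1 to 5, so these numbers were taken to pair the libraries. The best match was the library of the same number for replicates 2 to 5, but not for replicate 1. With the replicate block, 0 members passed with co-culture in mammary fibroblasts, as without it.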

Additional observations from a re-analysis of the deposited data

Results flagged for a closer look

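Hoxb4 in mammary co-culture replicate 4 stood apart from its group, at 24.99 CPM against 31.42 to 33.37 CPM in the other 4 libraries. It was 1 of 72 groups of member and culture tested for a library far from the others, and chance flags about 1 in 20 groups (5%).

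The macrophage table, which none of the comparisons between fibroblasts uses, held counts of several members after co-culture. That table held 17 members, each looked at after fat, lung and mammary co-culture. In the following 11 results every one of the 4 libraries was above every day-0 library, and counts are sums over 4 libraries. The share of all genes of the macrophage table that did so was not computed, so the number of results shows nothing particular to these genes. After fat co-culture, Hoxa7 had 15 counts (2 at day 0), Hoxa11 had 21 (0 at day 0), Hoxc6 had 17 (1 at day 0) and Hoxc10 had 28 (0 at day 0). After mammary co-culture, Hoxb7 had 16 counts (2 at day 0), Hoxb8 had 12 (0 at day 0), Hoxb9 had 36 (0 at day 0) and Hoxc6 had 25 (1 at day 0). After lung co-culture, Hoxa5 had 17 counts (3 at day 0). In CPM, these 9 Hox results were at 0.938 to 2.72% of the mean level in the fibroblasts of the same co-culture. Meis3 had 122 counts after fat and 125 after lung co-culture, against 47 at day 0, which is 29.2% and 32.5% of the fibroblast level. After mammary co-culture Meis3 had 144 counts, at 6.41 ± 2.17 CPM against 2.57 ± 0.575 CPM at day 0 (SD, n = 4 each). There, not every library was above every day-0 library.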

How the results depend on the processing

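Of 118 calls of members between organs, 81 held in every refit tried (24 to 29 each), and 0 reversed. By setting, 118 held with RLE scaling and without the filter, 117 with DESeq2, 107 with a replicate block by number, 106 with the form of the column name as a term, 104 of 111 with the compared groups alone, 101 of 116 with mammary libraries of 1 form and 109 of 116 without mammary co-culture replicates 2 and 4. Leaving out 1 library ended 97 of 2474. The number of members higher in lung co-cultures was 0, and 1 with RLE scaling, DESeq2, the replicate block within organ, the name form as a term, mammary libraries of 1 form, or without mammary co-culture replicates 2 and 4, and 2 with lung alone in the fit. The number higher in fat than in mammary mono-cultures was 10, and 5 with the replicate block by number. The cause was not tested.

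Leaving out 1 library gave 0 to 1 members higher in lung co-cultures, 0 to 1 higher in mammary co-cultures, 2 to 6 lower in fat than in lung mono-cultures and 4 to 13 higher in fat than in mammary mono-cultures. Where a fit left 1 fat mono-culture, that library was assumed to vary like the other groups.

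For the replicate block, same-numbered libraries had deviations correlated at 0.0125 in fat replicate 1 and at 0.0429, 0.340 and 0.317 in lung replicates 1 to 3. In each of these the best match was the library of the same number. Whether the numbers pair libraries in fat, lung or mammary fibroblasts is not known. Numbers are not stated to pair libraries of different organs, and a block by number between organs ended the mono-culture calls of Hoxa4 and Hoxd8 between fat and lung and of Hoxa7, Hoxa10, Hoxd3, Meis1 and Pbx4 between fat and mammary fibroblasts, and the co-culture calls of Hoxc9 between fat and mammary and of Hoxb4 and Hoxb7 between lung and mammary fibroblasts. With it Hoxc11 passed between fat and lung co-cultures, Hoxa9 and Hoxc4 between fat and mammary co-cultures, Hoxb5 between lung and mammary co-cultures and Meis3 between lung and mammary mono-cultures. With the block Hoxb5 in lung differed by 1.12 (adjusted p = 0.0319). In mammary fibroblasts the block changed no call with co-culture. Members at under 10 counts a group, such as Hoxc11 and Hoxd10 in lung, are limited by depth.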
